A study of Homo sapiens with 4 samples.

Results

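MicroRNA host RNAs are long noncoding transcripts that hold the precursors of microRNAs, and 6 of them were followed here: MIR3142HG, MIR155HG, MIR17HG, MIR22HG, MIR31HG and MIR210HG. They were chosen by name, and MIR3142HG heads the list because its signal was lower in ESS2 knockdown cells of both lines, so the ratios of that contrast chose the members and are given as a description, with no test. The 6 host genes are among 25117 genes with a symbol on the array and have 11 of its 58201 non-control probes. Every probe whose accession maps to a member was used.

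The study knocked down ESS2, a nuclear protein, in 2 human prostate cancer cell lines, PC3 and DU145, and asked how gene expression then differed. PC3-shC and DU145-shC cells carried a control shRNA, against luciferase per the labels, and PC3-shESS2 and DU145-shESS2 cells carried an shRNA against ESS2. All 4 cultures grew in RPMI1640 with fetal bovine serum. The labels call the cells transduced, and the design text names a lentivirus, whereas the methods, which describe PC3, report a transfected plasmid and puromycin selection, without saying whether the selected cells were clones. Total RNA of each culture was hybridized to 1 one-colour (Cy3) Agilent array, 4 arrays in all, so no value has a biological replicate and no test between conditions was made. The 2 arrays of a line shared a slide and a scan, and the lines were on different slides, so line and slide cannot be told apart.

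ESS2 itself had a processed signal, the background-subtracted brightness of the spot, of 133 in PC3-shC and 53.6 in PC3-shESS2 cells, and of 85.7 in DU145-shC and 17.3 in DU145-shESS2 cells. After each array was scaled to its 75th percentile, the log2 ratio was -1.45 in PC3 and -2.35 in DU145, lower in the cells labelled shESS2 in both. The epithelial keratin genes KRT8 and KRT18 had signals of at least 2160 on every array. EPCAM, an epithelial adhesion gene, was also high on the control arrays, at 30700 and 2120, but its log2 ratio in DU145 was -2.61. KLK3, a marker of the prostate luminal lineage, was not well above background on any of the 4 arrays. Of 6 leukocyte genes, 4 could be compared in PC3 and 5 in DU145. Among them CD14 was 221 and 54.7 in PC3 and 172 and 274 in DU145. SPI1 was 18.9 in PC3-shC and 9.20, not well above background, in PC3-shESS2 cells, at least 2.27-fold lower, and 19.8 and 13.3 in DU145. CD14 and SPI1 were the 2 genes more than 2-fold lower in PC3, where 3.87% of all genes were, and in DU145 0 of the 5 were past 2-fold. CD79A lay between 676 and 1620 on all 4 arrays and PTPRC between 27.2 and 60.0. CD3E was not well above background on any array. The part of the leukocyte signals in the values of the host RNAs was not tested.

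A host RNA is transcribed by RNA polymerase II, and the enzyme Drosha cuts the microRNA hairpins out of it in the nucleus. Dicer then trims each hairpin to a duplex, and one strand, loaded on an Argonaute protein, pairs through its seed with messenger RNAs and lowers their translation or stability. The hosts differ in what drives them: those of miR-146a and miR-155 are known as targets of NF-κB in inflamed tissue, that of the miR-17 cluster, which also holds miR-92a, as a target of MYC and E2F factors, and that of miR-210 as a target of the hypoxia factor HIF. The array measured the host RNAs, not the mature microRNAs.

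The RefSeq tables of GRCh38.p14 place 12 microRNA genes and 22 mature microRNAs inside the 6 hosts. The mature sequences show what each host could release, and 1 arm of each microRNA gene is printed below 5′ to 3′, with bases 2 to 8, the seed, in capitals. The 2 microRNA genes of MIR3142HG do not share a seed, and miR-146a-5p is the arm known for repressing the signalling proteins IRAK1 and TRAF6.
miR-3142: aAGGCCUUucugaaccuucaga
miR-146a-5p: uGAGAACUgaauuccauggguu

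MIR155HG, MIR22HG, MIR31HG and MIR210HG each held 1 microRNA gene, and none of their seeds matched that of another host.
miR-155-5p: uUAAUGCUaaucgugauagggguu
miR-22-3p: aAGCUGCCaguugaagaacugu
miR-31-5p: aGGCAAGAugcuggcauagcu
miR-210-3p: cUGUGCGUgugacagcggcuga

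MIR17HG held 6 microRNA genes, and the arms below are grouped by seed: miR-17-5p and miR-20a-5p share 1 seed, miR-19a-3p and miR-19b-3p share another, and miR-18a-5p and miR-92a-3p have their own. In all, the 22 mature microRNAs carried 19 different seeds.
miR-17-5p: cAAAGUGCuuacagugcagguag
miR-20a-5p: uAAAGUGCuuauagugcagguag
miR-19a-3p: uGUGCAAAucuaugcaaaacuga
miR-19b-3p: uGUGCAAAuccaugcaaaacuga
miR-18a-5p: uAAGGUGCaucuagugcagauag
miR-92a-3p: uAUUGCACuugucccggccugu

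The promoters of MIR3142HG and MIR210HG, from 250 bases before to 50 after the annotated start in RefSeq (GRCh38.p14), are shown because these were the members whose signal differed by more than 2-fold between the arrays of a line. Capitals mark every match to the motifs searched on both strands: the κB consensus, the hypoxia core ACGTG or GCGTG, the E-box CACGTG, which contains a hypoxia core, and the AP-1 site TGANTCA. The first sequence is chr5:160468001-160468300 on the plus strand and the second chr11:568408-568707 on the minus strand.
MIR3142HG promoter: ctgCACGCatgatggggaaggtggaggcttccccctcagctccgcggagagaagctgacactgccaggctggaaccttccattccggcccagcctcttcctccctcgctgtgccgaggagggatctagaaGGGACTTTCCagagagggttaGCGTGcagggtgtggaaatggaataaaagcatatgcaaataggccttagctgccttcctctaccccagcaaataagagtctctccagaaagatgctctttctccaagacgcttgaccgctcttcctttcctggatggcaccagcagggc
MIR210HG promoter: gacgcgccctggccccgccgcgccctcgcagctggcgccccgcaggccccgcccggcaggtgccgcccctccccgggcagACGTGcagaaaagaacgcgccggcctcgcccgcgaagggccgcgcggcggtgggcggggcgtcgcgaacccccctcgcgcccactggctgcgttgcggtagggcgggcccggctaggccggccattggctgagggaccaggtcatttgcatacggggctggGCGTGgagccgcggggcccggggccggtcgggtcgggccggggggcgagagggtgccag

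The MIR3142HG promoter held 1 match to the κB consensus, GGGACTTTCC, which ended 110 bases before the start, and no other member's promoter held one. Of the 34943 promoters in the table, 11.3% held such a match. The hypoxia core was found in 4 of the 6 promoters, those of MIR3142HG, MIR155HG, MIR22HG and MIR210HG, beside 48.4% of all promoters. In MIR210HG 1 match ended 4 bases before the start and the other 165 bases before it. An AP-1 site, TGAGTCA, was found only in the MIR155HG promoter among the 6, ending 53 bases before the start, beside 7.72% of all promoters. None of the 6 held an E-box, which 7.23% of all promoters did. The members differed in base composition, since the promoters of MIR3142HG and MIR155HG had a GC content of 56.3% and 56.0% and the other 4 between 72.3% and 80.0%, with a median of 58.7% over all promoters. A match describes letters in this window and says nothing of binding in these cells.

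**Figure D1:**
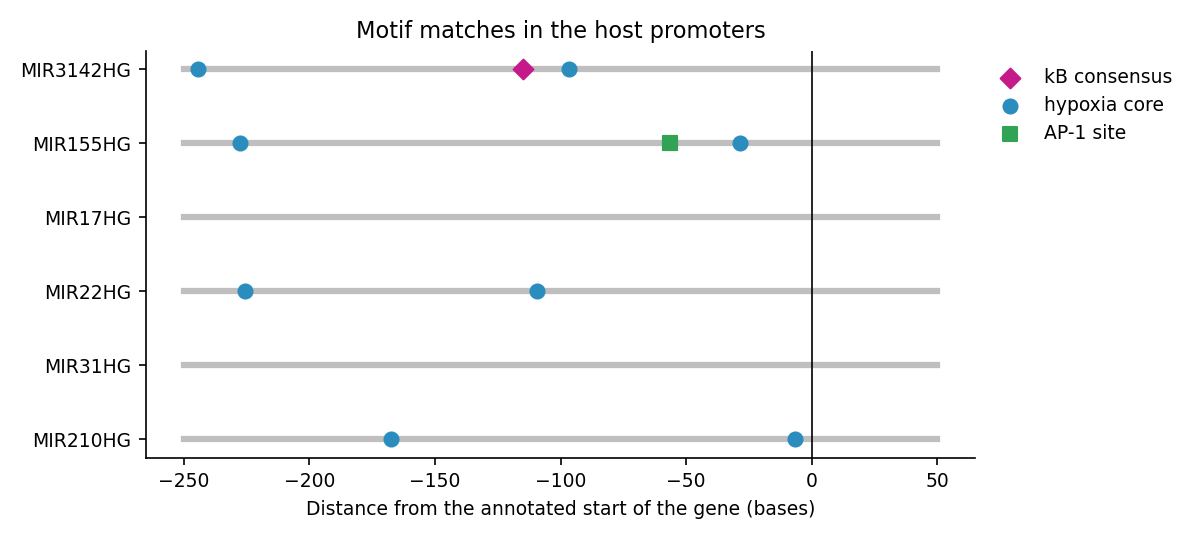
Position of each motif match in the promoters of the 6 host genes; the x axis is the distance in bases from the annotated start and each grey line is the window searched. The single κB match lies in the MIR3142HG promoter, 110 bases before the start, and the single AP-1 site in that of MIR155HG.

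MIR3142HG, the host of miR-3142 and miR-146a, had 1 probe. Its signal was 421 ± 42.1 in PC3-shC and 12.4 ± 2.35 in PC3-shESS2 cells, where ± is the error the scanner software gives for the spot. In DU145-shC cells it was 80.5 ± 8.26, and in DU145-shESS2 cells 2.99 ± 1.78, which was not well above background. Both control arrays were thus bright and both knockdown arrays dim, and the higher knockdown value, in PC3, lay below the lower control value, in DU145. The scaled signal was 37.4-fold lower in PC3-shESS2 than in PC3-shC cells, a log2 ratio of -5.23 with an error of 0.31 from the scanner's estimates alone. In DU145 the knockdown value was raised to 8.15, the dimmest signal that still counted as well above background there, and the signal was at least 10.2-fold lower, a log2 ratio of -3.34 or below. In bulk RNA, fewer cells that express a transcript and less of it per cell cannot be told apart.

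The spread between spots gives a scale for ratios of spots well above background. Over the 286 probes with repeated spots in PC3 and 283 in DU145, the log2 ratio of 2 single spots had a median SD of 0.079 in each line. All spots of these probes were well above background, unlike that of MIR3142HG in DU145-shESS2 cells. For MIR3142HG the scanner error of the ratio was larger, 0.31 in PC3 and, for the signals as measured, 0.87 in DU145. The spread between spots covers neither the hybridization nor the cultures. The ratio in PC3 kept its direction under every alternative processing run, between -5.33 and -2.86, the latter with normexp background correction, and that in DU145 lay between -4.79 and -1.21, with no value where both arrays had to be well above background.

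MIR155HG, the host of miR-155, was near background. Its 1 probe gave 2.14 in PC3-shC and 1.85 in PC3-shESS2 cells, both not well above background, so no ratio was taken in PC3. In DU145-shC cells it gave 11.7 ± 2.12, just well above background, and in DU145-shESS2 cells 4.93 ± 1.70, which was not. The signal was at least 1.48-fold lower in DU145-shESS2 cells, a log2 bound of -0.56. Without raising the dim value the log2 ratio was -1.29, and the scanner error of 0.56 belongs to that ratio.

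MIR17HG, the host of the miR-17 cluster, had 3 probes that did not move alike. Probe 3, the brightest, gave 81.6 in PC3-shC and 50.6 in PC3-shESS2 cells, and 27.5 in DU145-shC and 17.9 in DU145-shESS2 cells, lower in the knockdown on both slides. Its log2 ratio was -0.83 in PC3 and -0.66 in DU145, and its local background was marked as an outlier on all 4 arrays. Probe 1, annotated to another RefSeq transcript of the gene, gave 25.6 and 28.1 in PC3 and 12.5 and 14.8 in DU145, where the log2 ratios were -0.01 and 0.20. Probe 2 lay between 5.20 and 9.51 and was not well above background on any array. The gene is represented by probe 3, and when spots with outlying local background were left out, probe 1 took its place.

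MIR22HG, the host of miR-22, had a signal of 296 in PC3-shC and 435 in PC3-shESS2 cells on its brighter probe, and of 298 and 481 in DU145-shC and DU145-shESS2 cells. The knockdown array was the higher one in both lines, with log2 ratios of 0.41 and 0.65. The other probe, annotated to another transcript, gave 287 and 282 in PC3 and 186 and 174 in DU145, with log2 ratios of -0.17 and -0.14. The scanner error of each of these ratios was about 0.20, and the probes went opposite ways in both lines.

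MIR31HG, the host of miR-31, lies beside CDKN2A and CDKN2B. Probe 1 gave 304 in PC3-shC and 375 in PC3-shESS2 cells, and 189 and 198 in DU145-shC and DU145-shESS2 cells, with log2 ratios of 0.16 and 0.03. Probe 3 gave 316 and 547 in PC3 and 116 and 211 in DU145, with log2 ratios of 0.65 and 0.82. Probe 2 gave 16.5 and 29.8 in PC3, a log2 ratio of 0.71, and was not well above background in DU145, at 6.87 and 7.24. All the ratios taken lay above 0, and those of probes 2 and 3 lay above those of probe 1.

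MIR210HG, the host of the hypoxia microRNA miR-210, gave 234 ± 23.5 in PC3-shC and 341 ± 34.1 in PC3-shESS2 cells. In DU145 it gave 44.4 ± 4.92 in DU145-shC and 117 ± 11.9 in DU145-shESS2 cells. The knockdown array was the higher one in both lines, and the DU145-shESS2 value stayed below both PC3 values. The log2 ratio was 0.40 in PC3 and 1.36 in DU145, where the signal was 2.56-fold higher, and the PC3 ratio minus the DU145 ratio was -0.96. With normexp the DU145 ratio was 0.72 and no longer past 2-fold.

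**Figure D2:**
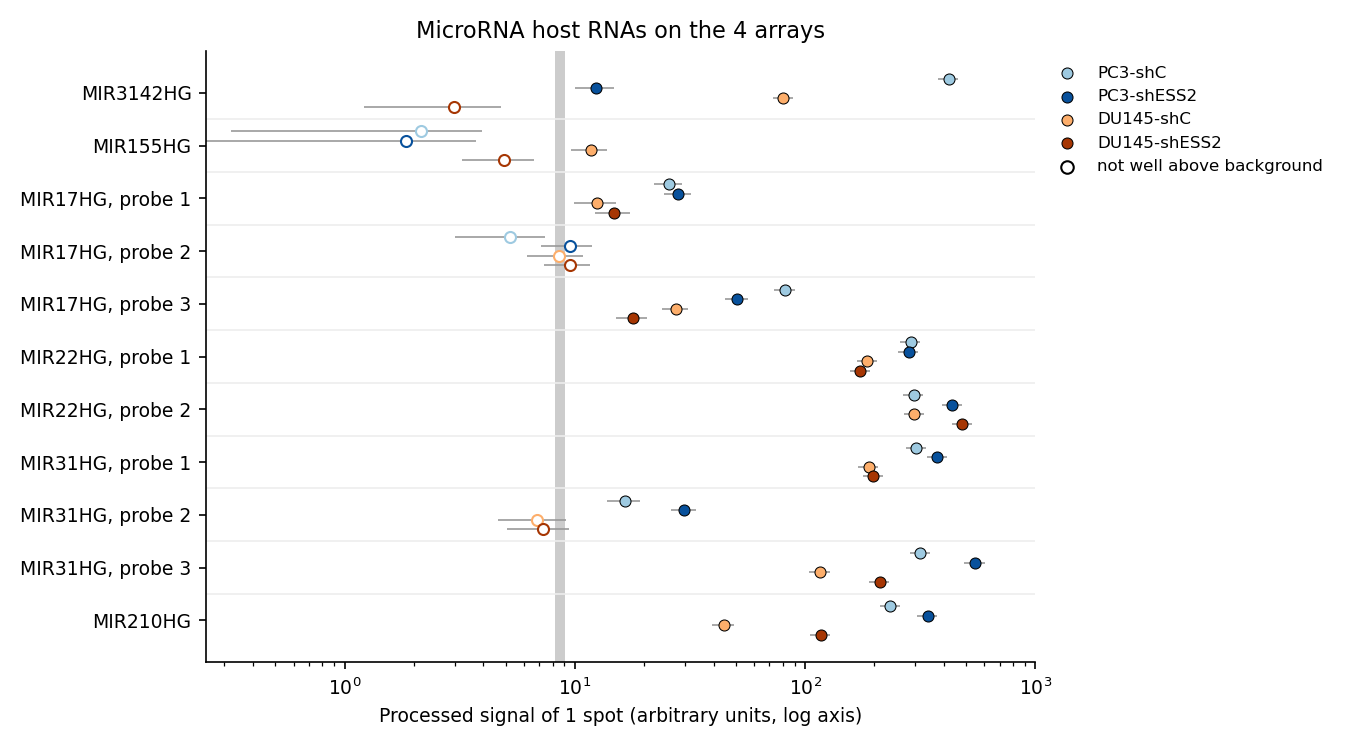
Processed signal of each of the 11 probes of the host RNAs on the 4 arrays, on a log axis, with the scanner's error of the spot as bars; open circles are spots not well above background, and the grey band spans the lowest signals well above background, 8.15 to 9.02. MIR3142HG is bright on both control arrays, at 421 and 80.5, and at 12.4 and 2.99 on the knockdown arrays. A bar whose lower end would reach 0 runs off the axis.

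Probes annotated to the microRNA genes themselves gave a further, dim readout of MIR210HG and none of MIR17HG. Of the 12 microRNA genes inside the hosts, 5 had a probe. Those of MIR17, MIR19A, MIR19B1 and MIR92A1 lay between 1.63 and 6.10 and were not well above background on any array. The MIR210 probe gave 10.1 in PC3-shC and 14.5 in PC3-shESS2 cells, a log2 ratio of 0.38, beside 0.40 for the host. Both signals were near the lowest well above background on those arrays, 8.94 and 9.02. In DU145 the MIR210 probe was 6.52 and not well above background in the control and 9.99 in the knockdown, at least 1.12-fold higher. None of these probes is annotated to miR-3142 or miR-146a.

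Taking 1 probe for each gene, 5 of the 6 hosts could be compared in PC3 and all 6 in DU145. In PC3 1 member, MIR3142HG, was more than 2-fold lower and 0 were more than 2-fold higher, where 3.87% of all 16761 genes compared were lower and 3.88% higher. In DU145 1 member, MIR3142HG again, was lower and 1, MIR210HG, higher, where 2.47% and 2.36% of all 16839 genes were. MIR3142HG was the 1 member past 2-fold in both lines, as the choice of members had it, and 0.252% of the 15476 genes compared in both lines were lower in both, with 0.265% higher in both. The rule used this contrast, so nothing is read from these shares. The median log2 ratio of all genes was -0.05 in PC3 and -0.02 in DU145, and that of the members 0.16 and -0.27.

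**Figure D3:**
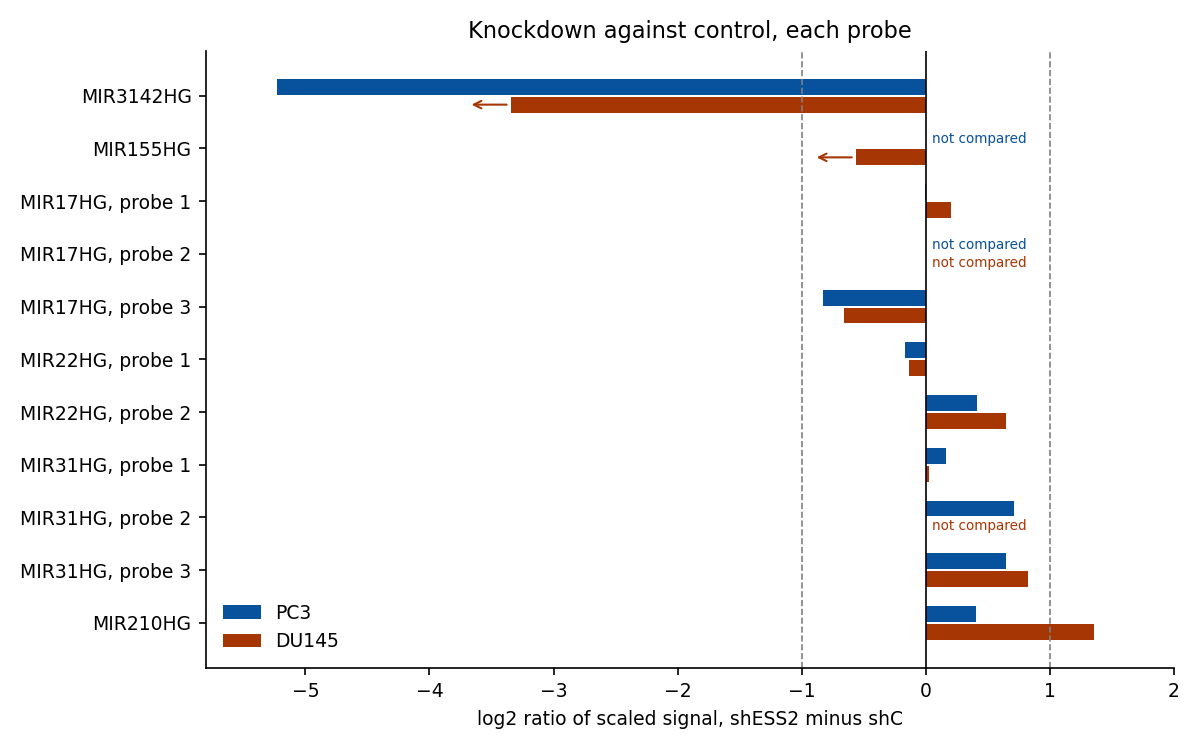
log2 ratio of the scaled signal, shESS2 minus shC, of each probe in PC3 and DU145; dashed lines mark 2-fold, arrows mark ratios that are bounds, and probes dim on both arrays of a line are not compared. The bars of MIR3142HG reach -5.23 and -3.34, and the other probes stay within 1 of 0 except MIR210HG in DU145, at 1.36.

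**Figure D4:**
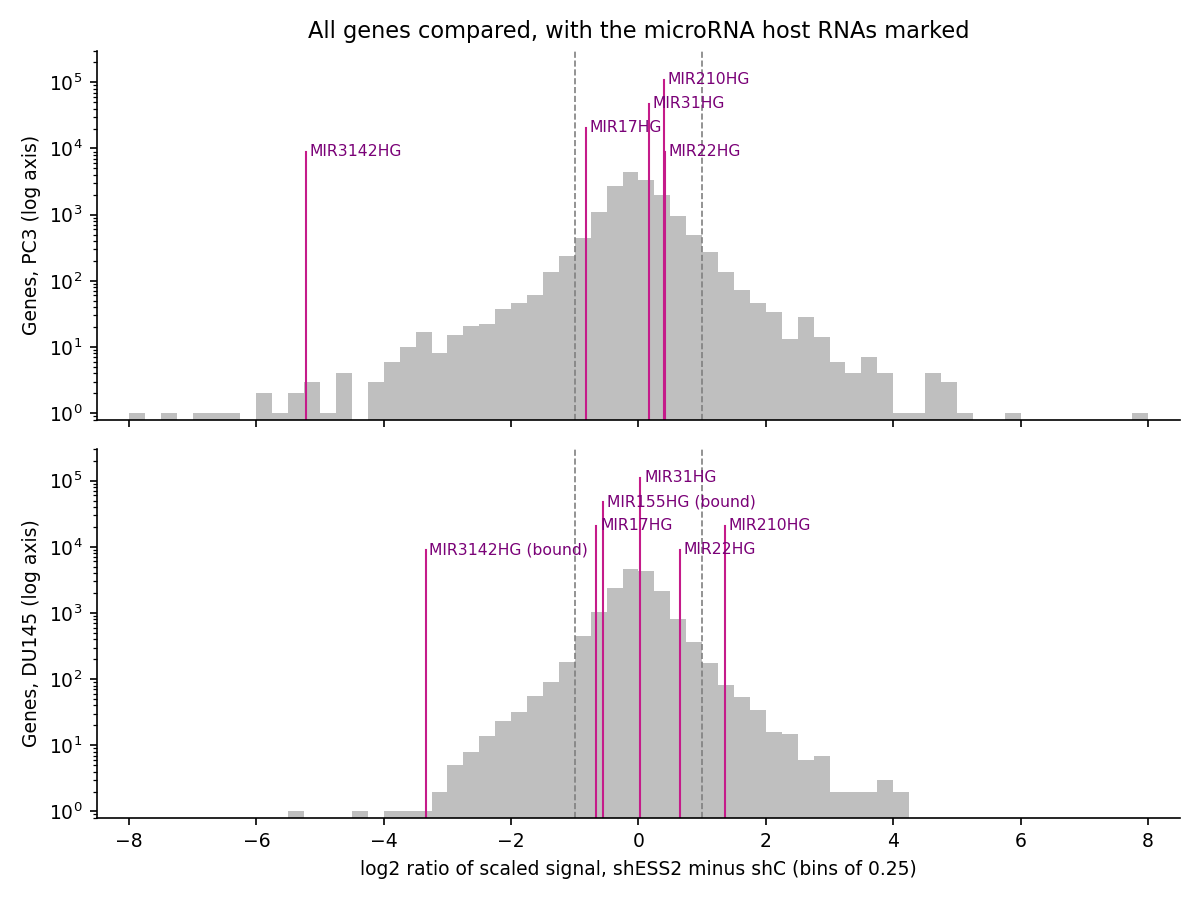
Number of genes (log axis) by log2 ratio, shESS2 minus shC, in PC3 above and DU145 below, in bins of 0.25, with the host RNAs marked by lines whose height has no meaning. Most genes lie between the dashed 2-fold lines, and MIR3142HG lies at -5.23 in PC3 and at a bound of -3.34 in DU145.

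The levels in the control cells were not used to choose the members, but they rest on the same 2 control arrays as the ratios and on 1 array a line. MIR3142HG was 4.22-fold brighter in PC3-shC than in DU145-shC cells and MIR210HG 4.25-fold, and MIR17HG was 2.39-fold brighter on its representative probe and 1.65-fold on probe 1. MIR31HG was 1.30-fold brighter on its representative probe and 2.20-fold on probe 3. MIR22HG was 1.25-fold dimmer in PC3-shC cells on one probe and 1.24-fold brighter on the other, and MIR155HG was at least 1.62-fold dimmer in PC3-shC cells, where it was near background. Of the 17472 genes compared between the control arrays, 22.1% were more than 2-fold brighter in PC3-shC and 19.9% more than 2-fold dimmer. The baseline log2 difference stayed above 0 under every scaling for MIR3142HG (1.54 to 2.53), MIR210HG (1.23 to 2.54) and MIR17HG (0.52 to 1.71), and crossed 0 for MIR22HG (-0.77 to 0.13) and MIR31HG (-0.07 to 0.83). For MIR155HG it stayed below 0, from -2.76 without a filter on dim genes to -0.24 with scaling to the median. The 1.62-fold bound of MIR155HG thus depended on the scaling.

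Other host transcripts give a setting for the members. RefSeq names 81 further genes whose symbols begin with MIR and end in HG, and 55 were on the array. In PC3 26 of them could be compared, with a median log2 ratio of 0.27, and 0 were more than 2-fold lower and 3 more than 2-fold higher, beside 3.87% and 3.88% of all genes. These were MIR193BHG at 1.42, MIR100HG at 1.13 and MIR503HG at 1.02, and the probes of MIR100HG ranged from -0.49 to 1.75. In DU145 27 could be compared, with a median of -0.04, and 0 were past 2-fold either way, beside 2.47% of all genes lower and 2.36% higher. Taking 1 probe for each gene, the lowest ratio among them was -0.95 in PC3 and -0.99 in DU145, both bounds, of MIR924HG and MIR3663HG. Single other probes were lower. In PC3 they reached -1.95 for MIR3681HG, -1.17 for MIR99AHG and -1.12 for MIR205HG, whose representative probes were at 0.01, 0.73 and -0.81. In DU145 a probe of MIR9-3HG reached -1.59, with its representative probe at 0.13. In protein-coding hosts the median was -0.02 in PC3, with 2 of 31 genes lower and 1 higher, and 0.09 in DU145, with 0 of 30 lower and 1 higher, against the same shares of all genes. The lower ones in PC3 were IGF2, a growth factor gene that holds miR-483, at -2.83, and PPARGC1B, host of miR-378a, at -1.02. The higher ones were CLCN5, a chloride transporter gene, at 1.18 in PC3, and ARPP21 at a bound of 1.19 in DU145.

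The genes beside the hosts were looked at next. For the 3 nearest protein-coding genes on each side of each member, and the 1 gene inside MIR31HG, 24 could be compared in PC3 and 22 in DU145. Beside MIR3142HG, the mitotic gene PTTG1 had log2 ratios of -0.55 and -1.02, the splicing factor gene SLU7 -0.07 and 0.16, and FAM200C -0.64 and -0.31, while ATP10B, GABRB2 and GABRA6 on the other side were not well above background on any array. In DU145 PTTG1 was the 1 neighbour more than 2-fold lower, and 0 were more than 2-fold higher, beside 2.47% and 2.36% of all genes. Beside MIR210HG, IRF7, a regulator of interferon genes, was 25300 in PC3-shC and 6490 in PC3-shESS2 cells, a log2 ratio of -2.10, and 0.19 in DU145. It was the 1 neighbour more than 2-fold lower in PC3, where 3.87% of all genes were lower and 3.88% higher. On one side of MIR31HG, the nearest gene was MTAP, a methionine salvage gene, at 1300 in PC3-shC and 722 in PC3-shESS2 cells, with log2 ratios of -0.99 there and -0.24 in DU145. Beyond it CDKN2B had ratios of 0.92 and 0.86 and CDKN2A -0.31 and 0.14, both genes being cell cycle inhibitors. IFNE, an interferon gene inside MIR31HG, had a bound of 1.60 in PC3, the 1 neighbour more than 2-fold higher there, and 0.83 in DU145, and signal from the overlapping genes may not be separable.

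By the Euclidean distance of the centred log2 values over the 4 arrays, among 15475 other genes with a level in both lines, the nearest to MIR3142HG was CSF2, which encodes the growth factor GM-CSF, at 1.85. CSF2 was 171 in PC3-shC and 30.0 in PC3-shESS2 cells, and 106 in DU145-shC cells but 4.20 and not well above background in DU145-shESS2 cells. LTB, the gene of lymphotoxin beta, followed at 2.02, then FABP6, a bile acid carrier gene, at 2.38, LAMP3 at 2.39 and RBP4, which encodes the retinol carrier of blood, at 2.44. In DU145 the log2 ratios of FABP6, LAMP3 and RBP4 were -0.49, -1.31 and -0.97, beside -3.34 or below for MIR3142HG. None of these genes was close, since the furthest gene named for another member, VASN, lay at 0.33. The DU145-shESS2 values of MIR3142HG and CSF2 were raised to the limit of detection, so these distances rest partly on that limit. The nearest to MIR210HG was KDM3A, a histone demethylase gene known as a HIF target, at 0.28, with log2 ratios of 0.63 and 1.04, followed by MATN2 and VASN. SPRY4 at 0.07, DNAJC22 and YWHAB were nearest to MIR17HG, LINC01511, CYP51A1 and HCG20 to MIR22HG, where LINC01511 was not well above background in either control and its place rests on values raised to the limit, and NFYC-AS1 and DEFB124 were among the nearest to MIR31HG.

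NF-κB targets were described as the pathway of MIR3142HG and MIR155HG. In PC3 34 could be compared and their median log2 ratio was -0.56, beside -0.05 for all genes, with 14 more than 2-fold lower and 3 higher, beside 3.87% and 3.88% of all genes. In that line 24 of the 34 lay below 0, beside 55.6% of all genes. In DU145 32 could be compared, with a median of -0.64 beside -0.02, 11 lower and 2 higher, beside 2.47% and 2.36% of all genes, and 28 of 32 below 0, beside 52.7% of all genes. CSF3, the gene of G-CSF, was 7200 in PC3-shC and 45.9 in PC3-shESS2 cells, a log2 ratio of -7.43, and was not well above background in DU145. LTB had ratios of -3.32 and -5.27, CSF2 -2.65 and a bound of -3.74, and the chemokine gene CCL20 -3.23 and -2.75. IL1B, the gene of interleukin-1β, was 43800 and 3170 in PC3, a ratio of -3.93, and not well above background in DU145.

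The genes of the list that were higher were named after their values were seen. IL6, an inflammatory cytokine gene, had ratios of 2.62 and 2.48 on its brighter probe and 0.62 and 0.37 on the other. TNFAIP3, which encodes the NF-κB inhibitor A20, was 1.55 in PC3 and -2.38 in DU145, and TRAF1 had a bound of 2.53 in PC3. PTGS2, the cyclooxygenase-2 gene, was -2.24 in PC3 and had a bound of 1.30 in DU145. The list overlaps genes that the study followed in these same PC3 arrays, so it is not independent evidence of a direction.

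Described targets of miR-146a did not share 1 direction. In PC3 the median of 15 was 0.35, with 1 more than 2-fold lower and 2 higher, beside 3.87% and 3.88% of all genes. In DU145 it was -0.09, with 0 past 2-fold, beside 2.47% of all genes lower and 2.36% higher. The chemokine receptor gene CXCR4 was 20.4 in PC3-shC and 333 in PC3-shESS2 cells, a log2 ratio of 3.92, and 0.54 in DU145. IRAK1, a kinase gene, and TRAF6, a ubiquitin ligase gene, both of the NF-κB pathway, had ratios of -0.25 and 0.58 in PC3 and of -0.29 and 0.45 in DU145.

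Targets of the other microRNAs were described in the same way. The medians in PC3 and DU145 were -0.04 and 0.05 for miR-155, -0.04 and 0.10 for miR-22, 0.16 and -0.02 for miR-31, and -0.11 and 0.00 for miR-210. For miR-17 they were -0.14 and 0.33, with 10 of 17 targets below 0 in PC3, beside 55.6% of all genes, and 5 of 19 in DU145, beside 52.7%. Among them TXNIP, which encodes a thioredoxin inhibitor, was 73.5 in DU145-shC and 418 in DU145-shESS2 cells, a ratio of 2.47, and 0.21 in PC3. In PC3 the cell cycle inhibitor gene CDKN1A was 73.2 and 198, a ratio of 1.29, and 0.62 in DU145. The miR-31 targets ITGB3 and ITGA5, both integrin genes, had ratios of -2.51 and 2.32 in PC3 and 0.88 and -0.04 in DU145. The miR-155 targets IKBKE, an NF-κB pathway kinase gene, and TP53INP1 had ratios of -1.91 and 1.36 in PC3 and -1.03 and 1.47 in DU145.

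Hypoxia targets were described as the pathway of MIR210HG. In PC3 24 could be compared, with a median log2 ratio of 0.51, beside -0.05 for all genes, and 3 of 24 below 0, beside 55.6% of all genes. In DU145 23 could be compared, with a median of 0.19 beside -0.02 and 3 of 23 below 0, beside 52.7%. In each line 1 was more than 2-fold lower and 3 higher, against the all-gene shares given for the NF-κB targets. BNIP3, a mitophagy gene, had ratios of 1.30 and 0.58, INSIG2, a regulator of sterol synthesis, 1.58 and 0.08, the stress gene NDRG1 0.42 and 1.40, and the glycolytic regulator gene PFKFB4 0.41 and 1.22. ANKRD37 was the third higher gene in PC3, at 1.13, and KDM3A, at 1.04, in DU145. VEGFA, the gene of the angiogenic factor VEGF-A, was -1.12 in PC3 and 0.58 in DU145. ADM, which encodes the vasodilator adrenomedullin, was 0.70 in PC3 and -1.43 in DU145. MIR210HG, at 0.40 and 1.36, was near the median in PC3, and in DU145 only NDRG1 of the list was above it.

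MYC and E2F factors are the known regulators of MIR17HG, and their list also held partners and antagonists of these factors, such as RB1 and MXD1. Its median is therefore not that of regulators acting in 1 direction. It was -0.28 in PC3, where 17 of 21 lay below 0, beside 55.6% of all genes, and -0.07 in DU145, where 12 of 21 did, beside 52.7%. MYC was 10910 in PC3-shC and 6885 in PC3-shESS2 cells, a log2 ratio of -0.80, and 0.31 in DU145. MXD1, an antagonist of MYC, was the 1 gene of the list past 2-fold, at 1.81 in PC3, where 3.88% of all genes were higher, and 0.99 in DU145. The microRNA processing genes lay close to all genes, with medians of -0.03 over 24 genes and 0.04 over 23. In PC3 ADAR, which edits double-stranded RNA, was 12700 and 6210, a log2 ratio of -1.17, and AGO4, an Argonaute gene, 52.4 and 117, a ratio of 1.02. These were the 1 lower and 1 higher gene past 2-fold there, beside 3.87% and 3.88% of all genes. In DU145 0 of the list were past 2-fold, beside 2.47% of all genes lower and 2.36% higher. DROSHA had ratios of -0.17 and 0.04 and DICER1 -0.25 and 0.25.

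**Figure D5:**
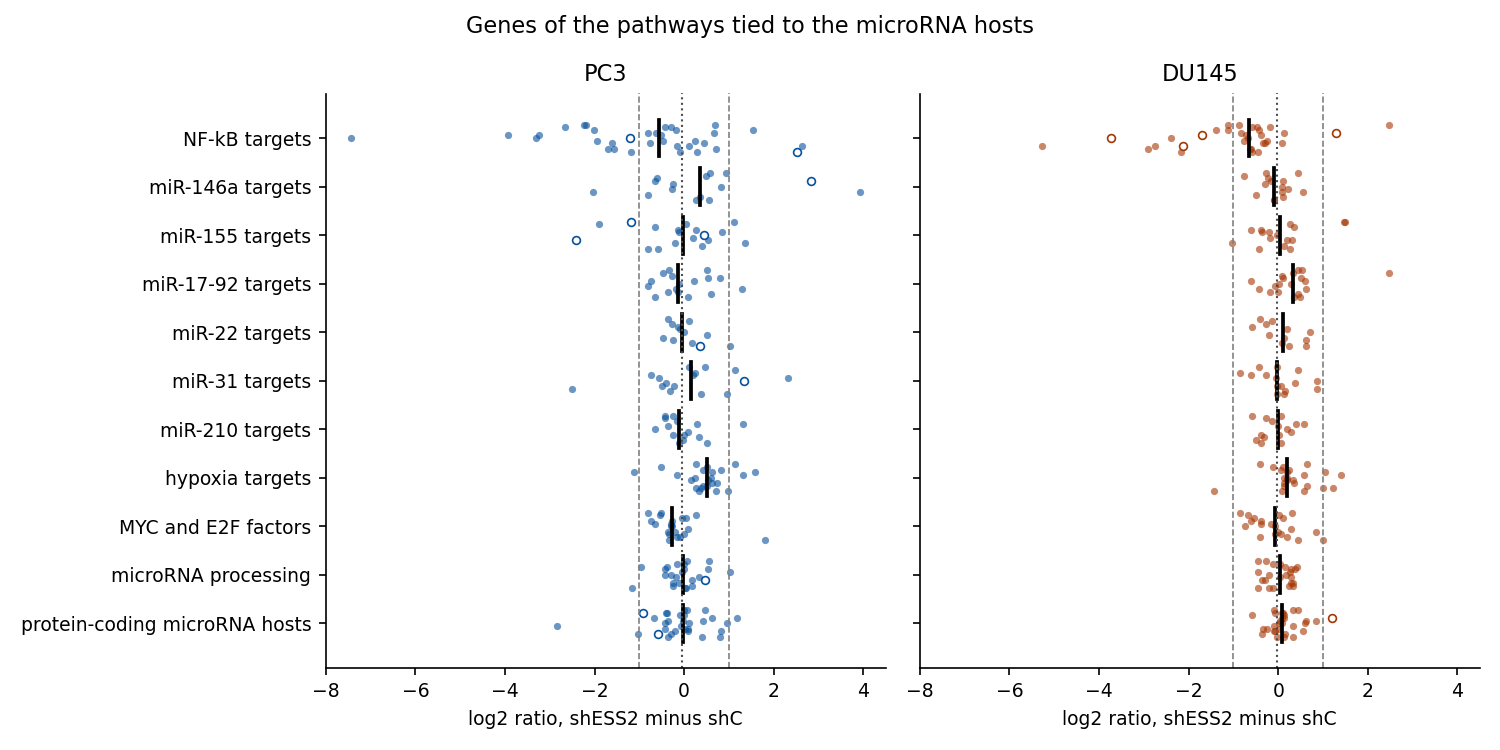
log2 ratio, shESS2 minus shC, of each gene compared (points, open where the ratio is a bound) and the median (black bar) of 11 gene lists in PC3 and DU145; dashed lines mark 2-fold and the dotted line the median of all genes. The NF-κB targets have the lowest medians, -0.56 and -0.64, and the hypoxia targets the highest in PC3, 0.51.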

How the data were processed

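The authors deposited the scanner output of 4 Agilent arrays, in which Feature Extraction had subtracted the background from each spot intensity and removed spatial trends, without scaling between arrays, and a table of scaled intensity values. Here log2 of the processed signal was taken and the 75th percentile of each array over 60901 non-control spots subtracted. The percentile was 263 to 290 in PC3 and 212 to 218 in DU145, 50.8 to 52.6% of spots were well above background and 0 were saturated. Spots flagged as outliers in their own signal were left out, and those flagged only in their local background were kept. Accessions of the newer annotation, in the PC3 files, or else the older one, were matched to RefSeq, which named 35076 probes. The MIR3142HG accession stands only in the newer release. The probe with the highest mean stood for a gene, genes well above background on at least 1 array of a pair were compared, and a dim value was raised to the lowest signal well above background. The genes named are the members, those past 2-fold among other hosts and, up to 5, in each list, neighbours and nearest profiles. Leukocyte and epithelial markers were checked, and the results of some genes are not reported here. The members and lists were chosen with earlier results of these data known. The scanner error of a ratio combined the deposited errors of both spots. The script that takes the ratios was checked on simulated data with known fold changes, which tests the calculation and not the conditions. Python 3.11.15, numpy 2.4.6, pandas 2.3.3, matplotlib 3.10.9, R 4.3.3 and limma 3.58.1 (for normexp, offset 50) were used.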

Additional observations from a re-analysis of the deposited data

Results flagged for a closer look

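Among the genes of the lists, 2 NF-κB targets passed 2-fold in opposite directions in the 2 lines, and the difference between the lines was not tested. TNFAIP3 had a log2 ratio of 1.55 in PC3 and -2.38 in DU145. PTGS2 had -2.24 in PC3 and, as a bound, 1.30 in DU145. No member did so.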

How the results depend on the processing

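The log2 ratio of MIR3142HG in PC3 was -5.33 with scaling to the median, -5.03 with quantile normalization, -2.86 with normexp and -5.14 with the authors' scaled values. In DU145 it was -1.21 with normexp and -4.79 without a filter on dim genes. The members past 2-fold in DU145 numbered 1 with normexp, without MIR210HG, and 1 where both arrays had to be well above background, without MIR3142HG, and 3 without a filter on dim genes, where MIR155HG reached -1.29. Genes past 2-fold numbered 1299 in PC3 and 813 in DU145, 571 and 216 with normexp, and 2624 and 2018 without a filter. The other 41 values of these results moved by less than the spread between spots or by at most 1.5 times, and no called member ratio changed sign. Among the other members' ratios and the baseline differences, 57 of 140 values moved by more than that spread, among them MIR17HG, whose ratio in DU145 was 0.20 without spots of outlying local background, an alternative chosen after seeing the data, and MIR22HG, at -0.17 and -0.14 on its other probe. The cause was not tested. Scaling to the median moved the median of all genes in PC3 to -0.16, with 803 lower and 511 higher genes in place of 649 and 650, and that of the baseline from 0.12 to 0.58, with 2371 genes lower and 6130 higher in PC3-shC in place of 3480 and 3861. The authors' scaled values moved the baseline to -0.31, with 5159 lower and 2398 higher, and gave 535 lower and 792 higher in PC3 with a median of 0.04. Normexp gave 77 lower and 139 higher in DU145. Members could not be found by a gene name column, which was not used here. Each condition has 1 array, and a fit over both lines with the line as a block, which the 4 arrays would allow, was not run. Signals near background, as of MIR155HG, limit the ratios.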
